A study of Mus musculus with 6 samples.

Results

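Immunoglobulin variable and joining segments are the gene pieces from which B cells assemble antibodies, and their transcripts were examined in 6 bulk RNA libraries labelled as regulatory T cells (Tregs). A segment was taken where its symbol began with Ighv, Ighj, Igkv, Igkj, Iglv or Iglj followed by a digit and where at least 10 reads were counted over the 6 libraries. This left 99 of 360 such segments, among 51361 genes in the count table: 33 heavy variable (Ighv), 52 kappa variable (Igkv), 3 lambda variable (Iglv), 3 heavy joining (Ighj), 5 kappa joining (Igkj) and 3 lambda joining (Iglj) segments. A further 73 segments had 1 to 9 counts, 256 in all, and 188 had none. Because the minimum used the counts themselves, being counted at all is not a result.

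Cells were sorted as CD4+CD25+Foxp3+ from 9-week-old male mice of the C57BL/6N background carrying the transgene Tg(Foxp3-DTR/EGFP)23.2Spar, shared by all groups, in which Foxp3 regulatory sequence drives a diphtheria toxin receptor fused to a green fluorescent protein. In the first group, tMCAO brain, cells came from the brain 14 days after a 60 min transient middle cerebral artery occlusion (tMCAO), which blocks and reopens a brain artery as a model of ischaemic stroke. The second, tMCAO blood, was blood of mice operated on in the same way, and the third, sham blood, was blood of sham-operated mice. Each group had 2 libraries, each of 500 to 1000 cells, and the labels do not say whether the 2 came from separate animals or pools, so p-values measure the spread between libraries, which may be technical.

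Variable segments encode most of the antigen-binding domain and joining segments its last strand. In the B cell lineage, a variable and a joining segment are joined by DNA recombination into a light chain gene, and a diversity segment is added between them in a heavy chain gene. A given B cell as a rule expresses a single heavy and a single light rearrangement, which its daughter cells inherit. Plasma cells, the end stage of the lineage, transcribe both at very high levels, and switching replaces the first heavy constant region, mu, by gamma, epsilon or alpha. T cells rearrange their own receptor genes instead, and complete antibody genes are not a product of Tregs. Unrearranged constant regions and joining segments can be transcribed in lymphocytes without making antibody.

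By their markers the libraries held RNA of several cell types, and tMCAO brain library 2 stood apart from all others in the segments described here, so values are given for each library. Total counts were 14348179 to 24460894. The 12 T cell and sort markers took 0.0226%, 0.115%, 0.0566%, 0.371%, 0.734% and 0.699% of all counts, in the order tMCAO brain 1 and 2, tMCAO blood 1 and 2, sham blood 1 and 2. Foxp3, the defining factor of the sorted cells, was at 0.726 and 19.6 in the tMCAO brain libraries, 0.538 and 5.18 in those of tMCAO blood and 50.1 and 60.7 in those of sham blood (CPM, counts per 1000000 reads after TMM scaling of library sizes). In bulk RNA, fewer cells of a type cannot be told apart from less RNA per cell.

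The germline sequences of the segments on which the results turn, taken from the GENCODE M21 transcripts of the mouse build GRCm38, are printed 5′ to 3′ on the coding strand. Reads are assigned to segments by these sequences. For the 9 segments with at least 1000 counts in tMCAO brain library 2, a set chosen after the values were seen, the last 60 coding bases are shown. Capitals mark the last in-frame cysteine codon (TGT or TGC), after which the segment contributes the first bases of the third hypervariable loop.
Igkv8-30: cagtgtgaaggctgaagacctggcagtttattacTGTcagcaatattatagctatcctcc
Igkv1-117: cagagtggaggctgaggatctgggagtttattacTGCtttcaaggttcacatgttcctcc
Igkv10-96: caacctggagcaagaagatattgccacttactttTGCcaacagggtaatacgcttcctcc
Igkv3-4: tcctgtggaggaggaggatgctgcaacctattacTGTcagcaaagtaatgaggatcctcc
Ighv3-6: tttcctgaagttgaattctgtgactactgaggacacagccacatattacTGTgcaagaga
Ighv8-8: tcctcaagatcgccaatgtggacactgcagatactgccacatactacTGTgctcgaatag
Ighv1-26: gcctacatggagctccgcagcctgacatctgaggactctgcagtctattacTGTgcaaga
Ighv1-18: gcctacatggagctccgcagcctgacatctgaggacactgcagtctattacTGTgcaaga
Iglv1: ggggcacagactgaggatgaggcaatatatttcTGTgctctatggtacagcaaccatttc

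These stretches lie on GRCm38 at chr6:70117061-70117120 (minus strand, Igkv8-30), chr6:68121768-68121827 (plus strand, Igkv1-117), chr6:68631963-68632022 (minus strand, Igkv10-96), chr6:70672318-70672377 (plus strand, Igkv3-4), chr12:114288152-114288211 (minus strand, Ighv3-6), chr12:115294062-115294121 (minus strand, Ighv8-8), chr12:114788372-114788431 (minus strand, Ighv1-26), chr12:114682632-114682691 (minus strand, Ighv1-18) and chr16:19085017-19085076 (minus strand, Iglv1), each within the last coding exon of its gene. The kappa joining cluster lies on the plus strand, so Igkv1-117 and Igkv3-4 share its direction and Igkv8-30 and Igkv10-96 run against it. The distance to the joining cluster of the same locus ranged from 50.2 kb for Igkv3-4 to 2601 kb for Igkv1-117 in the kappa locus, and from 858 kb for Ighv3-6 to 1864 kb for Ighv8-8 in the heavy locus, so the most counted segments were not neighbours at one end of either locus.

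The leading segments of the other libraries are shown in the same way, because 3 of the 4 blood libraries were led by members of 1 family, Igkv6.
Igkv6-23: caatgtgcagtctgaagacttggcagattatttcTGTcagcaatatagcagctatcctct
Igkv6-15: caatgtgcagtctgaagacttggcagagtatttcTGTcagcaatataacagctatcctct
Igkv6-17: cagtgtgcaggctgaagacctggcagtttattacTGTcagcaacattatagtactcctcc
Igkv12-41: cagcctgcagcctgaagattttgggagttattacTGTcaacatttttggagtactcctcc
Igkv4-72: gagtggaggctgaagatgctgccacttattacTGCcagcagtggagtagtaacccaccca
They lie at chr6:70260409-70260468, chr6:70406469-70406528, chr6:70371934-70371993, chr6:69858420-69858479 and chr6:69226854-69226913 of GRCm38, with Igkv6-17 on the plus strand and the other 4 on the minus strand. A longer stretch of the most counted segment, Igkv8-30, its last 240 coding bases, covers most of the domain and has the cysteine codon in capitals near its end (chr6:70117061-70117300, minus strand).
Igkv8-30: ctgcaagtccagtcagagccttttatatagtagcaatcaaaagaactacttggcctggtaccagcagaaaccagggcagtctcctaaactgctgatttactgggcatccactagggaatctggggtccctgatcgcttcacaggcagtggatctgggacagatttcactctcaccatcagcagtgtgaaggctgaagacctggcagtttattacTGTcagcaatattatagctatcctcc
The most counted heavy segment, Ighv3-6, is given likewise (chr12:114288152-114288391, minus strand).
Ighv3-6: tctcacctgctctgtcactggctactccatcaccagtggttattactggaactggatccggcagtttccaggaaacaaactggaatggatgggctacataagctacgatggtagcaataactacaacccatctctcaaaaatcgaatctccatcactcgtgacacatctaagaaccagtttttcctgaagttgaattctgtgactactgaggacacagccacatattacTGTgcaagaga

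Segment reads were concentrated in a single library. Counts over the 99 segments were 77 and 202143 in the tMCAO brain libraries, 581 and 1209 in those of tMCAO blood and 391 and 1592 in those of sham blood. tMCAO brain library 2 thus stood far above the other 5, and tMCAO brain library 1 was the lowest of all 6, so the tMCAO brain group spanned both extremes and overlapped both blood groups. As a share of all reads, library 2 of tMCAO brain gave 0.826% (95% Wilson interval 0.823 to 0.830%). On the CPM scale its summed segment level of 8257 was 1773 times that of tMCAO brain library 1 (4.66 CPM) and 73.7 times that of the highest blood library (112 CPM, sham blood library 2). Within groups the 2 libraries were 1773-fold apart in tMCAO brain, 1.93-fold apart in tMCAO blood and 4.46-fold apart in sham blood. The cDNA was amplified and no molecular identifiers are named, so the intervals cover counting error only.

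Kappa variable segments took most of these reads in all 6 libraries, at 71.4%, 72.6%, 92.3%, 72.2%, 79.8% and 77.9% in the order given above. Heavy variable segments took 10.4%, 25.9%, 3.96%, 12.7%, 4.86% and 13.7%, their largest share being in tMCAO brain library 2. Lambda variable segments had no count in tMCAO brain library 1, and 1.36% in library 2, against 2.58% to 8.44% in the 4 blood libraries. Variable segments have annotated transcripts of 338 to 406 bases, and joining segments of 38 to 54 bases, so counts of the 2 kinds are not comparable as levels.

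**Figure D1:**
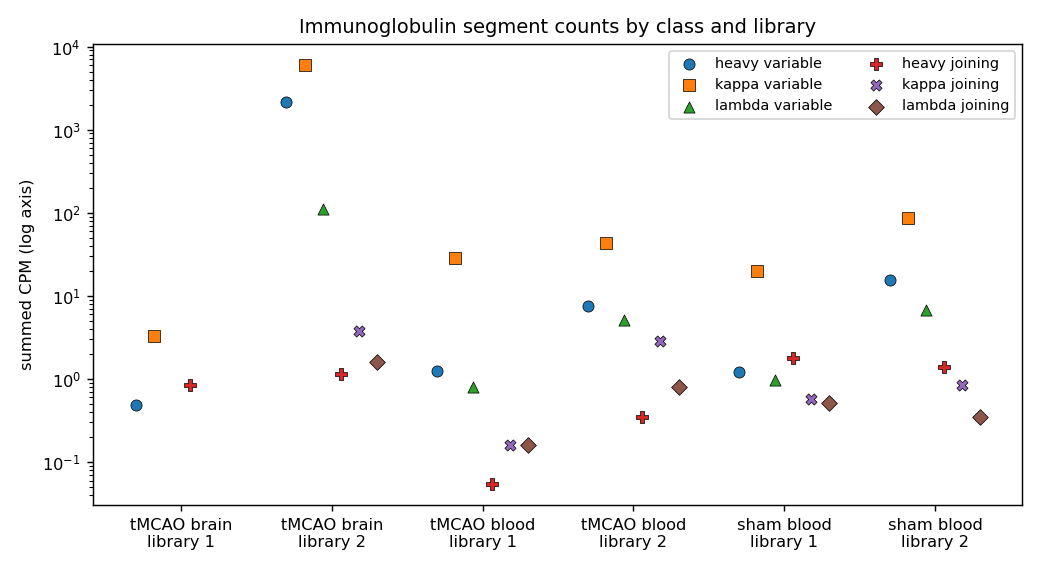
Summed CPM of the segments of each class (vertical log axis) in each of the 6 libraries (horizontal axis), with a marker shape for each class; classes with 0 counts are not drawn. Heavy, kappa and lambda variable segments of tMCAO brain library 2 stand above those of every other library, whereas its heavy joining segments lie below those of both sham blood libraries.

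The reads of tMCAO brain library 2 lay in few segments. Igkv8-30 alone held 78887 counts, 39.0% (95% Wilson interval 38.8 to 39.2%) of that library's segment reads. It was followed by Igkv1-117 with 33852 counts (16.7%), Ighv3-6 with 28872 (14.3%) and Igkv10-96 with 20386 (10.1%). Next came Ighv8-8 with 12044 counts (5.96%), Igkv3-4 with 10715 (5.30%), Ighv1-26 with 6751 (3.34%), Ighv1-18 with 3622 (1.79%) and Iglv1 with 2245 (1.11%). The next segment, Igkv8-24, had 655 counts. Of these 9 segments, 4 were heavy, 4 kappa and 1 lambda. The 4 heavy ones made up 97.9% of its heavy variable counts and the 4 kappa ones 98.0% of its kappa variable counts. The 9 together made up 97.6% of its segment reads.

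Each of these 9 segments was at 0 in tMCAO brain library 1. In the other libraries, 3, 6, 2 and 5 of the 9 had a count in tMCAO blood 1 and 2 and sham blood 1 and 2, where they made up 24.8%, 15.6%, 2.30% and 24.1% of segment reads. Counts of Igkv8-30 were 0 and 78887 in the tMCAO brain libraries, 75 and 27 in those of tMCAO blood and 0 and 115 in those of sham blood. In CPM that was 0 and 3222 in the tMCAO brain libraries, 4.04 and 1.35 in those of tMCAO blood and 0 and 8.09 in those of sham blood. It was thus present at lower levels in both tMCAO blood libraries and in 1 sham library. Igkv10-96 was counted at 0 and 20386 in the tMCAO brain libraries, 60 and 40 in those of tMCAO blood and 1 and 151 in those of sham blood, the same distribution apart from 1 read in sham blood library 1. Igkv1-117 was counted at 0 and 33852 in the tMCAO brain libraries, 9 and 32 in those of tMCAO blood and 0 and 0 in those of sham blood, so it was found in 3 of the 4 tMCAO libraries and not in sham blood. Ighv3-6 was counted at 0 and 28872 in the tMCAO brain libraries, 0 and 21 in those of tMCAO blood and 0 and 37 in those of sham blood. Ighv8-8, Igkv3-4 and Ighv1-18 were at 0 in all 5 other libraries. A count of 0 allows up to 0.123 to 0.211 CPM, depending on the library (3 counts), and the group levels of these 3 were at least 3783-fold, 3366-fold and 1138-fold higher in brain than in tMCAO blood against a floor of 3 counts over the group. Those bounds rest on library 2 alone.

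Beneath the 9 large segments, tMCAO brain library 2 still held a broad set. The remaining 4769 counts were spread over 65 segments. Their effective number, defined as the exponential of the Shannon entropy of the shares, that is the number of equally used segments giving the same entropy, was 28.2. With the same 9 segments left out, the effective number was 8.60 and 31.1 in the tMCAO blood libraries and 6.65 and 16.9 in those of sham blood. It was 3.53 in tMCAO brain library 1, which held none of the 9. The libraries differ in depth and were not thinned for these effective numbers. Leaving out segments chosen for their counts raises this measure by construction in the library they were chosen in.

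The other libraries had other leading segments. In tMCAO brain library 1 the kappa segment Igkv4-72 held 52 of 77 reads, 67.5% (95% Wilson interval 56.5 to 76.9%), and had no count in any other library. The next there was a joining segment, Ighj1, with 10 reads, and none of its 5 detected heavy variable segments had more than 2. tMCAO blood library 1 was led by Igkv12-41 with 106 reads (18.2%) and a segment of the Igkv9 family with 104 (17.9%). In tMCAO blood library 2 no segment exceeded 8.60%, the share of Igkv6-17. Sham blood library 1 was led by Igkv6-23 at 41.2% (95% Wilson interval 36.4 to 46.1%), followed by Igkv4-58 (18.9%) and Igkv4-50 (14.6%). In sham blood library 2, Igkv6-15 (15.0%), Igkv10-96 (9.48%), Igkv12-44 (9.05%) and Igkv8-19 (8.98%) led. The leader thus differed in each of the 6 libraries.

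Among heavy variable segments the leader also changed from library to library. It was Ighv3-6 in tMCAO brain library 2 (55.1% of heavy variable counts), Ighv6-6 in tMCAO blood library 1 (12 of 23 reads), Ighv1-77 in tMCAO blood library 2 (30 of 153), Ighv7-3 in sham blood library 1 (12 of 19) and Ighv1-81 in sham blood library 2 (50 of 218). tMCAO brain library 1 had 8 heavy variable reads in all, with Ighv10-1 among 3 segments at 2 reads. Ighv1, the largest family with 20 of the 33 members, took 50%, 20.8%, 13.04%, 68.6%, 36.8% and 61.0% of heavy variable counts in the 6 libraries in the order given. Its share in tMCAO brain library 2 was thus above that of tMCAO blood library 1 and below those of tMCAO blood library 2 and both sham blood libraries. Igkv6, with 7 members, took 27.8%, 51.6% and 19.4% of kappa variable counts in tMCAO blood library 2 and sham blood 1 and 2, but 0.251% in tMCAO brain library 2 and none in tMCAO blood library 1 or tMCAO brain library 1. Iglv1 led the lambda segments in 4 of the 5 libraries that had any, with 2245 of 2743 reads in tMCAO brain library 2, and Iglv3 led in tMCAO blood library 1.

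**Figure D2:**
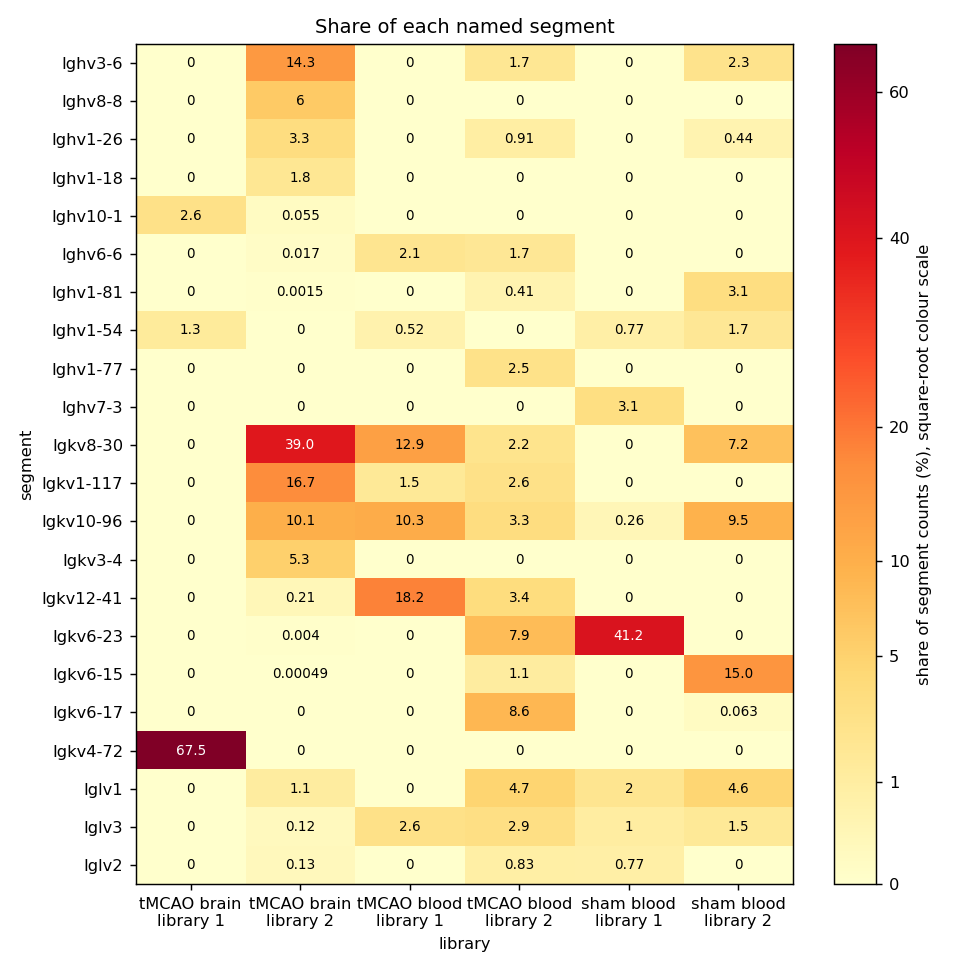
Share of segment counts (%, colour on a square-root scale, value printed in each cell) of each named segment (rows, grouped by class) in each library (columns). High shares fall in different rows in different columns, as with Igkv8-30 at 39.0% in tMCAO brain library 2, Igkv4-72 at 67.5% in tMCAO brain library 1 and Igkv6-23 at 41.2% in sham blood library 1.

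Segment use was concentrated in both tMCAO brain libraries. The effective number of segments was 3.53 and 6.70 in the tMCAO brain libraries, 10.98 and 36.5 in those of tMCAO blood and 7.16 and 20.5 in those of sham blood. Both tMCAO brain values lay below all 4 blood values, and the tMCAO blood and sham blood ranges overlapped. Group means were 5.12 ± 2.24 (SD, n = 2), 23.7 ± 18.0 and 13.9 ± 9.47 for the brain, tMCAO blood and sham groups. The SD of tMCAO blood was nearly as large as its difference from tMCAO brain, and no test was made, since 2 libraries against 2 cannot give an exact two-sided permutation p under 0.333. The separation of brain from blood also depended on the measure. With joining segments left out, sham blood library 1 (4.97) fell between the brain libraries (2.21 and 6.66), and by the inverse Simpson concentration it did so too (4.30 against 2.09 and 4.57). Over segments with at least 100 counts, sham blood library 1 (1.51) lay below both brain libraries (1.89 and 6.48), and tMCAO blood library 1 (5.07) lay below tMCAO brain library 2. In tMCAO brain library 1 that minimum left only 2 reads of Ighv10-1 and 1 of Ighv1-56, too few to place its value of 1.89.

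The number of segments detected depends on how many segment reads a library holds. It was 11 and 74 in the tMCAO brain libraries, 20 and 57 in those of tMCAO blood and 20 and 46 in those of sham blood. Thinned to 77 reads, the total of the smallest library, the expected number of detected segments was 11 and 9.97 in the tMCAO brain libraries, 14.2 and 32.9 in those of tMCAO blood and 13.7 and 22.6 in those of sham blood. At equal depth tMCAO brain library 2, which had the most segments before thinning, thus had the fewest, and tMCAO blood library 2 the most. The lowest place depended on the joining segments. For variable segments alone, thinned to 63 reads, tMCAO brain library 2 (9.40) lay above tMCAO brain library 1 (8.0) and sham blood library 1 (8.97). With segments of 1 to 9 counts included, tMCAO brain library 1 had an effective number of 7.65 in place of 3.53, above the 6.74 of library 2, so the order of the 2 brain libraries depended on the minimum. Evenness on a scale of 0 to 1 (Pielou index, entropy divided by its maximum for the segments detected) was 0.526, 0.442, 0.800, 0.890, 0.657 and 0.790 in the same order. The 10 most counted segments took 98.7% and 98.0% of reads in tMCAO brain, where those of the blood libraries took 91.9% and 50.8% after tMCAO and 92.1% and 73.0% after sham surgery.

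T cell receptor variable segments, the corresponding pieces in T cells, gave the following values by the same measure. Their effective number, over 101 segments with at least 10 counts, was 31.5 and 25.8 in the tMCAO brain libraries, 25.1 and 31.2 in those of tMCAO blood and 36.7 and 33.8 in those of sham blood. Thinned to 77 reads it was 24.6 and 17.5 in the tMCAO brain libraries, 18.5 and 21.1 in those of tMCAO blood and 23.4 and 22.0 in those of sham blood. The immunoglobulin segments, with joining segments included, gave 3.53 and 5.93 in the tMCAO brain libraries, 9.81 and 25.8 in those of tMCAO blood and 6.39 and 16.1 in those of sham blood. Immunoglobulin variable segments alone, thinned to 63 reads, gave 2.21 and 5.82, 9.26 and 22.0, and 4.56 and 14.7 in the same order. The difference between the 2 receptor kinds was not tested. Their total counts ran in another order, with 13790 and 14599 in sham blood, the highest, against 400 and 3911 in tMCAO brain.

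**Figure D3:**
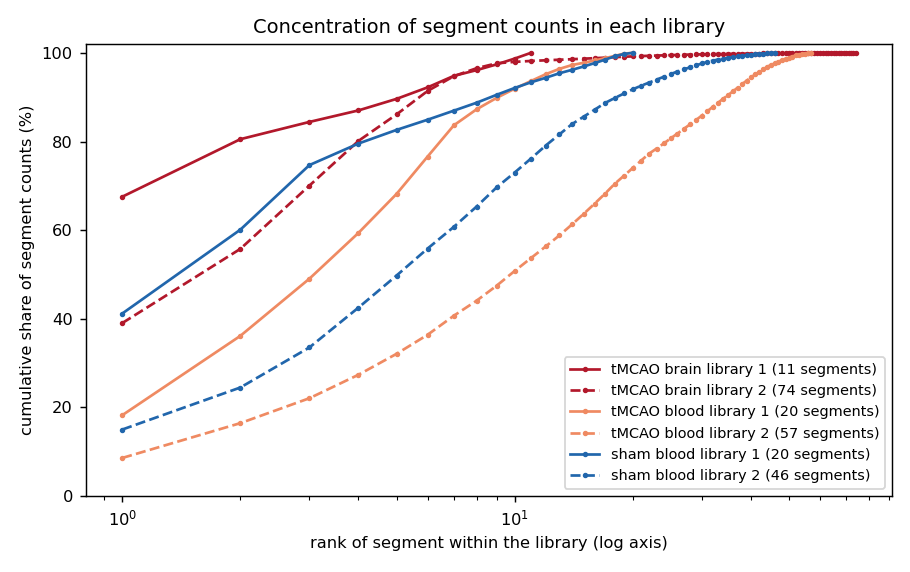
Cumulative share of segment counts (%) against the rank of the segment within its library (log axis), a line for each library, solid for library 1 and dashed for library 2, with the number of detected segments in the key. The first 10 ranks hold 98.7% and 98.0% in the tMCAO brain libraries, and the tMCAO blood library 2 line rises most slowly.

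Libraries shared few segments at similar shares. Of the 99 members, 27 had counts in 1 library, 37 in 2, 20 in 3, 9 in 4, 5 in 5 and 1, Ighj4, in all 6. Of the 88 variable members, 53 had at least 90% of their counts in a single library. Highest counts fell in tMCAO brain library 2 for 56 members, tMCAO blood library 2 for 18, sham blood library 2 for 14, tMCAO blood library 1 and sham blood library 1 for 5 each, and tMCAO brain library 1 for 1. Usage overlap, the sum over segments of the smaller of the 2 shares, was 0.237% between the 2 tMCAO brain libraries, 20.8% between those of tMCAO blood and 7.56% between those of sham blood. The 12 pairs from different groups ranged from 0.688% to 25.3% with a median of 11.4%, so all 3 values within groups lay under the highest value between groups, and that of tMCAO brain under all 12. The highest overlap was between tMCAO blood library 2 and sham blood library 2, and tMCAO brain library 2 overlapped with tMCAO blood library 1 by 25.1%, through Igkv8-30 and Igkv10-96. The 2 tMCAO brain libraries shared 7 segments, 63.6% of those in library 1 and 9.46% of those in library 2, and none of their 10 most counted. Without tMCAO brain library 2, 65 of the 99 members would still have reached 10 counts.

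Joining segments, which supply the last part of the variable domain, were counted at low numbers everywhere. They are shorter than the 75 base reads, as their whole sequences show, with capitals marking the codons of the conserved motif after the third hypervariable loop (tryptophan or phenylalanine, glycine, any residue, glycine), which was searched on the coding strand and found in 9 of the 11 members.
Ighj1: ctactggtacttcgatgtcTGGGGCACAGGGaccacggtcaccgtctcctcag
Ighj4: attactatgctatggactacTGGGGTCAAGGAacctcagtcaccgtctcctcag
Igkj1: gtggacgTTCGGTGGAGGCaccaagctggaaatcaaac
Igkj3: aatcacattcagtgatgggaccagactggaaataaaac
Igkj4: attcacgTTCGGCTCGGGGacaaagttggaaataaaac
Iglj3: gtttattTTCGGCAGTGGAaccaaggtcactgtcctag
They lie at chr12:113429781-113429833 and chr12:113428514-113428567 (minus strand), chr6:70722562-70722599, chr6:70723223-70723260 and chr6:70723548-70723585 (plus strand) and chr16:19067041-19067078 (minus strand) of GRCm38. Igkj3 does not hold these motif letters.

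Counts of Ighj1 were 10 and 13 in the tMCAO brain libraries, 0 and 3 in those of tMCAO blood and 19 and 11 in those of sham blood, and those of Ighj4 3 and 7 in the tMCAO brain libraries, 1 and 4 in those of tMCAO blood and 6 and 7 in those of sham blood. Ighj3, the third heavy member, had 1 and 8 counts in the tMCAO brain libraries. All 3 heavy joining members were thus counted in both tMCAO brain libraries, with more reads in library 2. In CPM, however, Ighj1 was at 0.605 in library 1 and 0.531 in library 2 of tMCAO brain. Ighj1 was lowest in the 2 tMCAO blood libraries. Kappa joining segments had no count in tMCAO brain library 1. Igkj1 was counted at 0 and 22 in the tMCAO brain libraries, 3 and 12 in those of tMCAO blood and 7 and 2 in those of sham blood. Igkj3 was counted at 0 and 18 in the tMCAO brain libraries, 0 and 19 in those of tMCAO blood and 0 and 2 in those of sham blood, with its highest values in library 2 of tMCAO brain and of tMCAO blood. The 5 kappa joining segments had between 15 and 22 reads each in tMCAO brain library 2, close to equal (effective number 4.93 of 5), where 1 kappa variable segment held 53.7% of kappa variable reads. All joining segments together made up 0.0787% of segment reads in that library and 18.2% in tMCAO brain library 1. Igkj4 was counted at 0 and 22 in the tMCAO brain libraries, 0 and 5 in those of tMCAO blood and 0 and 0 in those of sham blood, and the remaining members (Igkj2, Igkj5, Ighj3, Iglj1, Iglj3 and Iglj3p) had at most 21 counts in any library. The 5 kappa joining segments lie inside the annotated span of the noncoding gene Gm30211 on the same strand, and Iglj1, Iglj3, Iglj3p and Iglv1 inside that of 2010309G21Rik on the opposite strand. How reads spanning a junction or overlapping 2 genes were counted was not given, so low joining counts cannot be read as low use.

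Constant region genes, which define the antibody class, separated tMCAO brain library 2 in kind as well as in amount. Igha (chr12:113254830-113260236, GRCm38, the constant region of IgA) had 153290 counts there and 0 in each of the other 5 libraries, so the tMCAO brain group level was at least 48150.1-fold that of tMCAO blood, by library 2 alone. It made up 83.6% of heavy constant counts in that library (95% Wilson interval 83.4 to 83.8%), and Ighm, the mu region, 15.4%. In the other libraries Ighm made up 96.4% in tMCAO brain library 1, 94.0% and 84.4% in the tMCAO blood pair and 99.3% and 91.8% in the sham pair, so it led in all 5. Ighd, the delta region of mature unswitched B cells, reached 14.8% in library 2 of tMCAO blood and 8.22% in that of sham blood. Gamma regions were minor: Ighg2b had 15, 1083, 0, 90, 0 and 0 counts in the 6 libraries, Ighg2c 13 and 38 in tMCAO brain and none in blood, Ighg1 1 and 17 in tMCAO brain, and Ighg3 103 in tMCAO brain library 2 and 1 in tMCAO blood library 1. Ighe, of IgE, was at 0 in all 6.

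**Figure D4:**
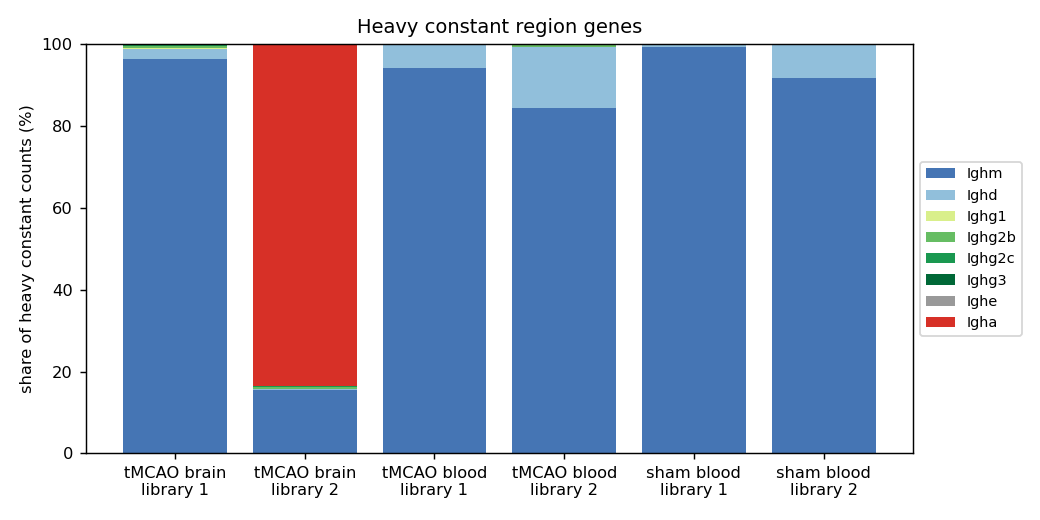
Share of heavy constant region counts (%, stacked to 100) taken by each of 8 genes in each library. Igha fills most of the tMCAO brain library 2 bar and is absent from the other 5, which are mostly Ighm.

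Igkc, the kappa constant region, followed the variable segments. In CPM it stood at 5.44 and 9271 in the tMCAO brain libraries, 58.7 and 148 in those of tMCAO blood and 49.7 and 136 in those of sham blood, so tMCAO brain again spanned both ends. Of light chain constant counts (Igkc, Iglc1, Iglc2 and Iglc3), kappa made up 80.4%, 98.2%, 79.1%, 56.9%, 71.8% and 70.0% in the order used before. The lambda share was largest in tMCAO blood library 2, where kappa took 56.9%. The lambda region Iglc1 was at 0 and 24.8 in the tMCAO brain libraries, 2.80 and 16.2 in those of tMCAO blood and 5.52 and 2.18 in those of sham blood (CPM). Iglc2 was at 0 and 91.9 in the tMCAO brain libraries, 6.78 and 47.6 in those of tMCAO blood and 8.67 and 32.9 in those of sham blood. Iglc3 was at 1.33 and 49.5 in the tMCAO brain libraries, 5.92 and 48.4 in those of tMCAO blood and 5.39 and 23.4 in those of sham blood, with all 3 highest in tMCAO brain library 2. Their reads are uncertain where the lambda copies are alike.

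Set against constant regions per length, the variable segments of heavy chains behaved unlike those of kappa chains. The summed level of kappa variable members in CPM per kb of exon, divided by that of Igkc, was 0.815 and 0.921 in the tMCAO brain libraries, 0.737 and 0.420 in those of tMCAO blood and 0.590 and 0.931 in those of sham blood, between 0.420 and 0.931 in all libraries. For heavy chains the same ratio was 0.0166 and 2.03 in the tMCAO brain libraries, 0.0549 and 0.0717 in those of tMCAO blood and 0.00805 and 0.0938 in those of sham blood. It thus exceeded 1 in tMCAO brain library 2 only and was below 0.1 in the other 5, where Ighm transcripts were present with few heavy variable reads. Sham blood library 1 had 11921 counts of Ighm and 19 of heavy variable segments, and tMCAO brain library 1 had 2452 and 8. Lambda ratios were 0 and 0.920 in the tMCAO brain libraries, 0.0698 and 0.0598 in those of tMCAO blood and 0.0657 and 0.159 in those of sham blood. Segments under 10 counts are left out of these sums.

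**Figure D5:**
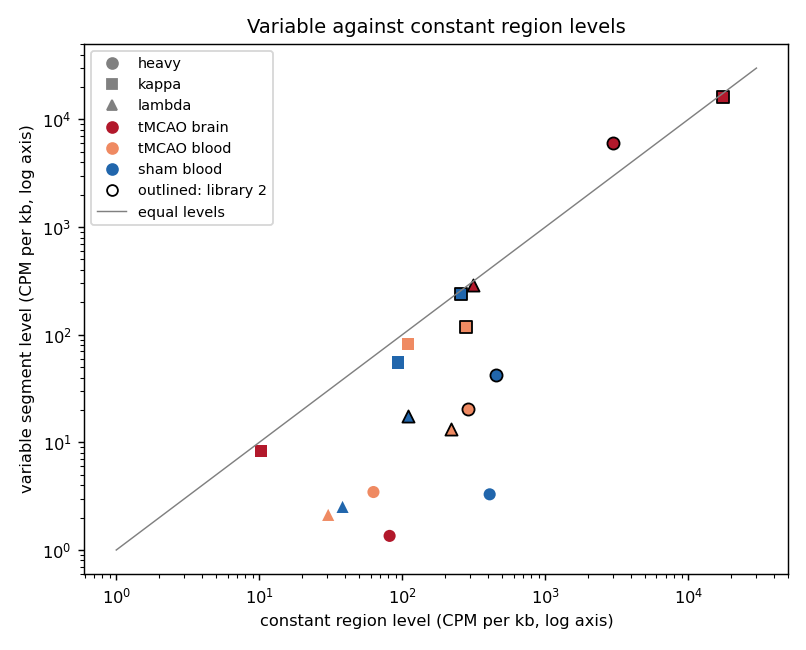
Summed level of variable segments (CPM per kb of exon, vertical log axis) against that of the constant regions of the same chain (horizontal log axis), a point for each chain and library, coloured by group, with library 2 outlined and the line of equal levels in grey; tMCAO brain library 1 has no lambda variable count and no such point. Kappa points lie along the line in all 6 libraries, and heavy points lie far under it except in tMCAO brain library 2.

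Between the groups, no segment passed the test in any of the 3 comparisons. A filter on low counts left 32 of the 99 members for testing, because the other 67 did not pass edgeR's filter, set to about 10 counts in at least 2 libraries. The 67 include Ighv8-8, Igkv3-4 and Ighv1-18, which tMCAO brain library 2 alone held. In tMCAO brain against tMCAO blood, 0 of the 32 tested members passed the edgeR test (quasi-likelihood, Benjamini-Hochberg adjusted p below 0.05), where 4.9% of 16657 genes did. At an unadjusted p under 0.05 there were 4 members of 32, where 28% of all genes reached it. Igkv4-91 alone passed by DESeq2 (20.7% of all genes) and by limma-voom (8.68%). The filter kept Igkv4-91 only through the tMCAO blood libraries, where it is high. In tMCAO blood against sham blood 0 of 32 passed, against 7.48% of all genes. At an unadjusted p under 0.05 there were 2 members, against 29.6% of all genes. DESeq2 called 2, Igkv1-117 and Igkv4-91 (22.8% of all genes), and limma-voom 1, Igkv4-91 (6.88%). In tMCAO brain against sham blood 0 of 32 passed, against 10.6% of all genes. At an unadjusted p under 0.05 there were 4, against 30.2% of all genes, and DESeq2 called 1, Igkv1-117 (24.1% of all genes), and limma-voom 0 (11.3%). Both Igkv1-117 and Igkv4-91 had no count in sham blood and entered these tests only through tMCAO libraries. Their passing over sham blood is thus no independent result. The members' counts by these rules thus lay below the share of all genes in each comparison. The 3 comparisons share their groups pairwise and are not independent.

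The large fitted differences came with large errors, as the 2 tMCAO brain libraries lay at opposite ends. For tMCAO brain against tMCAO blood Igkv8-30 showed a log2 change of 9.23 ± 4.003 (SE, edgeR adjusted p = 0.196), and Igkv1-117 a log2 change of 9.36 ± 3.68 (SE, edgeR adjusted p = 0.177). Ighv3-6 showed a log2 change of 10.10 ± 3.95 (SE, edgeR adjusted p = 0.160), and Ighv1-26 a log2 change of 8.91 ± 3.23 (SE, edgeR adjusted p = 0.139). All 4 changed sign without tMCAO brain library 2, at log2 changes of -8.52, -7.15, -6.18 and -5.26. Without tMCAO brain library 1, so with 1 brain library assumed to vary like the other groups, 78 members entered the test and 5 passed in tMCAO brain against tMCAO blood (Ighv1-18, Ighv1-26, Ighv8-8, Igkv1-117 and Igkv3-4), where 1.67% of 18750 genes did. Ighv1-18, Ighv8-8 and Igkv3-4 entered that fit only through the library in which they are high, so their passing as higher in brain was fixed by the filter and is no result. With the replicate number as a block, Ighv3-6 and Ighv1-26 passed, where 4.82% of all genes did, although the numbers are not shown to pair libraries. Igkc gave a log2 change of 5.49 ± 2.55 (SE, edgeR adjusted p = 0.220), and Ighm a log2 change of 1.19 ± 1.01 (SE, edgeR adjusted p = 0.473).

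Igkv4-91, a kappa segment, set tMCAO blood apart from both other groups in its counts. Its counts were 0 and 0 in the tMCAO brain libraries, 51 and 41 in those of tMCAO blood and 0 and 0 in those of sham blood, so it was found in both tMCAO blood libraries and in no other. Against a floor of 3 counts over the group, tMCAO blood was at least 32.5-fold higher than tMCAO brain (edgeR adjusted p = 0.0574) and at least 23.6-fold higher than sham blood (edgeR adjusted p = 0.0526). It passed by DESeq2 (adjusted p = 0.00773 and 0.0117) and limma-voom (0.0250 and 0.0365). Igkv4-91 entered all these tests only through the 2 tMCAO blood libraries, where it is high. The filter thus kept it by the contrast tested, and its passing as higher there is no independent result. Igkv12-41, counted at 0 and 416 in the tMCAO brain libraries, 106 and 41 in those of tMCAO blood and 0 and 0 in those of sham blood, was likewise at 0 in sham blood, with tMCAO blood at least 37.8-fold higher (edgeR adjusted p = 0.182), and it passed in 4 of the 13 alternative settings. In each setting Igkv12-41 entered the test only through tMCAO libraries, where it is high. Its passing over sham blood is thus no independent result either. Igkv4-91 and Igkv12-41 are kappa segments of different families, and each was among the 9 most counted in both tMCAO blood libraries. For Ighj1 in tMCAO blood against sham blood the fit gave a log2 change of -3.60 ± 1.30 (SE, edgeR adjusted p = 0.130).

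Genes of the B cell lineage moved with the segments in part. Markers of B cells (19 genes) took 0.0534%, 0.0928%, 0.00870%, 0.0288%, 0.0168% and 0.0336% of counts in the 6 libraries, and those of plasma cells (15 genes) 0.0687%, 0.373%, 0.0573%, 0.0429%, 0.0422% and 0.0459%. Jchain, which links IgA or IgM units into polymers, was at 0 and 2744 in the tMCAO brain libraries, 0 and 0 in those of tMCAO blood and 0.257 and 0 in those of sham blood (CPM), so it had the same distribution as Igha apart from 4 reads in sham blood library 1. Jchain thus made up most of the plasma cell list in tMCAO brain library 2, which summed to 3727 CPM there and to 826 CPM in tMCAO brain library 1. Cd79a, a signalling subunit of the B cell receptor, was at 1.63 and 132 in the tMCAO brain libraries, 4.20 and 16.5 in those of tMCAO blood and 16.6 and 59.2 in those of sham blood CPM. Ms4a1, which encodes the B cell surface protein CD20, was at 0.423 and 73.9 in the tMCAO brain libraries, 10.7 and 21.1 in those of tMCAO blood and 7.70 and 28.4 in those of sham blood CPM. tMCAO brain library 2 was thus the highest and tMCAO brain library 1 the lowest for both, as for the segments, but the excess of library 2 over the highest blood library was 2.22-fold and 2.60-fold, against 73.7-fold for the segments and 62.5-fold for Igkc. The 19 B cell markers summed did not share this order. In tMCAO brain library 1 their sum (0.0534%) lay above that of every blood library. How far the B cell and plasma cell RNA of each library set its segment reads was not tested.

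In tMCAO brain against tMCAO blood 2 of 19 tested B cell markers rose by edgeR, Blnk and Cd72, which myeloid cells also transcribe, and 2 of 14 tested plasma cell markers, Tnfrsf13b and Tnfrsf17. None in either list fell, and of all 16657 genes tested 4.9% passed in that comparison, in either direction. The median log2 change was 1.23 over the B cell markers and 1.05 over the plasma cell markers, beside 0.06 over all genes tested. In CPM Blnk was at 327 and 203 in the tMCAO brain libraries, 24.4 and 9.57 in those of tMCAO blood and 2.82 and 9.08 in those of sham blood, so tMCAO brain library 1 was above library 2, unlike in the segments. In tMCAO blood against sham blood 0 of 19 B cell markers passed and 1 of 14 plasma cell markers, Tnfrsf13b, fell, where 7.48% of all genes passed. In tMCAO brain against sham blood 3 of 19 B cell markers (Blnk, Cd22 and Cd72) and 2 of 14 plasma cell markers (Slamf7 and Tnfrsf17) rose. Of all genes 10.6% passed there, so these counts are not read as particular to the lists. None of the 8 tested of 12 constant region genes passed in any comparison, against the same shares of all genes. Genes of receptor rearrangement and the surrogate light chain, with activation-induced deaminase (7 genes), took at most 3.68e-04% of counts in any library, and none of the 3 tested passed; Rag2 was at 0 in all 6 libraries and Rag1 had 1 count.

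Markers of other cells were distributed otherwise than the segments. The 10 microglia markers took 0.836%, 0.867%, 0.0636%, 0.0723%, 0.0313% and 0.0396% of counts, alike in the 2 tMCAO brain libraries, and the 10 monocyte and macrophage markers 3.24%, 1.34%, 2.51%, 0.839%, 0.686% and 0.539%. In tMCAO brain against tMCAO blood 8 of the 10 microglia markers rose and 0 of the monocyte and macrophage markers passed. The share of all genes passing in that comparison was 4.9%, for these lists and those below. The 5 myeloid Fc receptor genes, whose products bind antibody, took 0.611%, 0.325%, 0.713%, 0.411%, 0.0710% and 0.0818%, and 1, Fcgr4, fell in tMCAO brain against tMCAO blood. Red cell genes (7 of 8 listed were in the table) took at most 8.06e-05% in tMCAO brain, 0.107% and 3.80% in the tMCAO blood pair and 15.1% and 16.4% in the sham pair, and 3 of the 7 fell in tMCAO brain against tMCAO blood. None of the 12 T cell and sort markers passed in that comparison.

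Variable segments resemble each other, which limits how surely a read names its segment. Of the 88 variable members, 31 had no 75-base stretch in common with another annotated segment, 57 had at least 1, and in 2 (Ighv1-72 and Igkv6-20) at least 50% of such stretches were shared. Ighv3-6 shared none, Igkv8-30 5.44% (with Igkv8-21), Igkv3-4 9.09%, Ighv1-26 16.2%, Igkv10-96 20% (with Igkv10-94) and Igkv1-117 30.9% (with Igkv1-110). Ighv1-26 and Ighv1-18 were the closest relatives of each other, at 96.9% identity, so their counts may be split uncertainly. In tMCAO brain library 2 Igkv1-110, the relative of Igkv1-117, had 153 counts against 33852. Rearranged genes can also carry mutations, which this comparison of germline sequences leaves out. Of the 99 members 2, Igkv4-77 and Ighv1-28, are annotated as pseudogenes, with 2 reads in tMCAO brain library 1, 10 in tMCAO brain library 2 and 9 in tMCAO blood library 2.

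Just inside the minimum lay Ighv1-19, Ighv1-28, Ighv1-50, Ighv1-72, Igkv3-7, Igkv4-79 and Igkv8-16, with 10 counts each, and just outside Igkv3-2, Igkv4-57 and Igkv4-57-1 with 9 each.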

How the data were processed

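Bulk RNA of 6 libraries was measured by SMART-Seq and Nextera XT with paired 75 base reads, per the labels' protocols. The deposited values are raw counts for each gene, which the authors obtained with STAR and HTSeq 0.11.2 on GRCm38, per the submitters' processing notes. The annotation release, strand setting and treatment of reads with several matches are not given in the sources used here, so reads of a segment and of an overlapping gene on either strand cannot be told apart. Segments were taken by symbol and a minimum of 10 summed counts. These members and all gene lists were chosen with earlier results of these data known.

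Counts were tested on the whole table with edgeR 4.0.16 (R 4.3.3; TMM, filterByExpr, quasi-likelihood test, all 6 libraries in 1 fit with 3 residual degrees of freedom, Benjamini-Hochberg adjustment over 16657 genes, threshold 0.05, no covariate), with DESeq2 1.42.0 and limma 3.58.1 as alternatives. The script was tested on simulated data. CPM use TMM library sizes. Shares, Shannon effective number and thinning (exact hypergeometric expectation) used raw counts. Per-length levels divide CPM by the annotated exon length (GENCODE M21), and identity was computed with edlib. All 99 members matched the annotation. RefSeq promoter sequences had no entry for them.

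Named were the 5 heavy, 5 kappa and 3 lambda segments with the highest mean share over libraries, the leader of each class in each library, all joining segments, called members, constant regions and up to 4 genes of each list. The lists were constant regions, B cell, plasma cell, T cell and sort, microglia, monocyte and macrophage markers, myeloid Fc receptors, red cell genes and genes of rearrangement. Igkv1-117, Igkv3-4, Ighv1-18, Igkv4-91, the next-ranked segments of each library, Cd79a, Ms4a1, Blnk, Cd72, Cd22 and Slamf7 were named after their values were seen where that rule did not take them. The 2 added evenness settings, per length and over segments with no shared 75-base stretch, were also chosen after seeing the data. A result that needs an item withheld for evaluation is not reported here.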

Additional observations from a re-analysis of the deposited data

How the results depend on the processing

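Each comparison of the groups called 0 segments with edgeR, and this count depended on the setting. Without a filter on low counts, 30 of 99 passed in tMCAO brain against tMCAO blood (25 higher, 5 lower), 18 in tMCAO blood against sham blood (10 higher, 8 lower) and 38 in tMCAO brain against sham blood (28 higher, 10 lower), where 11.5%, 11.6% and 14.3% of 31242 genes passed. These genes need 1 count and the members by their rule 10, so the shares are not alike in depth. DESeq2 called 1, 2 and 1 in that order (20.7%, 22.8% and 24.1% of all genes), and limma-voom 1, 1 and 0 (8.68%, 6.88% and 11.3%). A fit of the 2 groups alone called 2 of 14 in tMCAO blood against sham blood (Igkv12-41 and Igkv4-91, 11.7% of all genes). Both were at 0 in sham blood and entered that fit only through tMCAO blood, so their passing is no independent result. Such a fit called 0 of 24 in tMCAO brain against tMCAO blood (0.162% of all genes) and 0 of 13 in tMCAO brain against sham blood (17.8%). DESeq2's size factors called 0 of 32 throughout (4.85%, 6.91% and 10.5% of all genes, with the comparisons in the order first given). A filter of 5 CPM in 2 libraries left 6 members for testing and called 0 throughout (11.3%, 16.9% and 17.2% of all genes in the same order). With 1 library left out at a time, the lone library of a group is assumed to vary like the other groups. The number of segments passing in these fits changed with the library left out, as did that of all genes, so the numbers are not compared here. Without tMCAO brain library 1, 78 members were tested, some through a single library.

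With a replicate block, 2 segments (Ighv3-6 and Ighv1-26) passed in tMCAO brain against each blood group and 0 between the blood groups, where 4.82%, 11.9% and 7.91% of all genes passed. Deviations of libraries with the same number correlated at 0.304, -0.0285 and -0.0702 over 16657 genes for these 3 pairs of groups, so the numbers are not shown to pair the libraries.

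Without tMCAO brain library 2, the log2 change of tMCAO brain against tMCAO blood turned to -8.52 for Igkv8-30, -7.15 for Igkv1-117, -6.18 for Ighv3-6, -5.26 for Ighv1-26, -4.24 for Igkc and -0.93 for Ighm. With another library left out, the same changes reached up to 10.22, 10.44, 16.35, 14.26, 6.48 and 2.53 in that order. Their adjusted p over all alternatives reached from under the threshold to 0.879 (Igkv8-30), 0.716 (Igkv1-117), 0.696 (Ighv3-6), 0.651 (Ighv1-26), 0.805 (Igkc) and 0.794 (Ighm). That of Igkv4-91 ranged from 7.80e-04 to 0.193 against tMCAO brain and from 0.00146 to 0.301 against sham blood.

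The mean effective number depended on which segments were counted. Over segments with at least 100 counts it went from 23.7 to 9.92 in tMCAO blood, from 13.9 to 5.34 in sham blood and from 5.12 to 4.18 in tMCAO brain. In tMCAO brain library 1 that minimum left only 2 reads of Ighv10-1 and 1 of Ighv1-56. Over segments with no shared 75-base stretch the mean was 8.97 in tMCAO blood, 6.58 in sham blood and 1.15 in tMCAO brain. In tMCAO brain that shift went beyond the SD of 2.24, but library 1 held only 1 read of such segments, of Ighv1-54. The SD between 2 libraries is so large in blood that shifts of this size stay within it. Single libraries ranged from 3.53 to 6.70 in tMCAO brain, from 10.98 to 36.5 in tMCAO blood and from 7.16 to 20.5 in sham blood. With 77 reads in tMCAO brain library 1, its segment shares are the least precise.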
